A study of Mus musculus with 19 samples.

Results

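The 10 genes described here carry out the defence of a cell against peroxides and superoxide through thioredoxin, glutathione and the transcription factor Nrf2. They are Sod2, Gsr, Txn1, Txnrd1, Prdx1, Srxn1, Slc7a11, Gclc, Gclm and Nqo1, found by symbol among the 16941 genes of the deposited tables. All 10 were present, and all 10 passed the filter on low counts that left 14113 genes for testing. The libraries came from microglia, the resident macrophages of the brain, of C57BL/6 mice 10 to 11 months old. The cells were taken from the cortex and kept in culture for 4 weeks with 10% serum, plus macrophage colony-stimulating factor at 5 ng/mL. They received lipopolysaccharide (LPS), a component of the outer membrane of Gram-negative bacteria, at 100 ng/mL for 6 h, or medium alone as vehicle, and recovered for 16 h before RNA was extracted. The groups were APP LPS (n = 5), APP vehicle (n = 5), WT LPS (n = 5) and WT vehicle (n = 4). APP mice carried the hAPPJ20 transgene (PDGFAPPSw,Ind), a human amyloid precursor protein with mutations of familial Alzheimer's disease under a PDGF promoter, which is used for its activity in neurons, so the cultured cells were not the cells the promoter is chosen for. Nothing in the labels ties a library to an animal or a culture of its own, so each p-value measures only the spread between libraries, which may be technical in part.

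Nrf2, encoded by Nfe2l2, is held in the cytoplasm and marked for degradation by Keap1, and oxidants or electrophiles that modify Keap1 let Nrf2 reach the nucleus, where it binds antioxidant response elements together with small Maf proteins. Its targets include the cystine importer and the ligase that feed glutathione synthesis, the reductases that recycle glutathione and thioredoxin with NADPH, and the peroxiredoxins that remove peroxides with electrons from thioredoxin. LPS acts through Toll-like receptor 4, and in macrophages it turns on the phagocyte NADPH oxidase, which makes superoxide, as well as genes driven by NF-kappaB, of which Sod2 is a known example.

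The stretches printed here show where the core of an antioxidant response element lay in the promoters of the members whose levels are compared further on. Promoter windows of 300 bases, from 250 before to 50 after the transcription start, came from RefSeq (GRCm38.p6) and were found for 8 members. They were searched on both strands for the core, spelled TGACNNNGC or TGAGNNNGC, which is in capitals with 25 bases on each side. Each stretch is read along the strand of its gene, and the core is on the opposite strand in all but the Srxn1 stretch. One match is shown per gene; the Srxn1 window held 3 matches and the Prdx1 window 2.
Slc7a11, chr3:50443677-50443735, minus strand: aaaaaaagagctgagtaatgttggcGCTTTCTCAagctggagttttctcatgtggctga
Srxn1, chr2:152105454-152105512, plus strand: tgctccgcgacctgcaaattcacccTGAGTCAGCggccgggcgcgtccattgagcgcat
Txnrd1, chr10:82859089-82859147, plus strand: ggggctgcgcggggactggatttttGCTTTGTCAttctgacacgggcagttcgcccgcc
Prdx1, chr4:116685441-116685499, plus strand: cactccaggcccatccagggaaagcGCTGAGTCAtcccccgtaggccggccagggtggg
Gclm, chr3:122245398-122245456, plus strand: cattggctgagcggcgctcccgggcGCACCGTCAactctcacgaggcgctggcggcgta
The core was in the windows of these 5 members and not in those of Sod2, Txn1 and Nqo1, and 27.8% of all 32851 windows held it. The kappaB motif, searched on both strands as GGGA and CC with any 4 bases between them, was in the window of Txn1 alone among the 8, and 20.7% of all windows held it. It lay on the opposite strand and is in capitals in the stretch that follows.
Txn1, chr4:57956470-57956529, minus strand: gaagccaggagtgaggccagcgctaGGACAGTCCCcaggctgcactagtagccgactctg
A match of letters is a description of the window and says nothing on whether a factor was bound there. No base outside the windows was searched, so a gene without a match may carry the core or the kappaB motif elsewhere.

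Values are given as CPM, the estimated counts of a gene per 1000000 counts of its library after scaling by TMM normalisation factors. Library totals were 13065257 to 31248988 counts, and the lowest count of any member in any library was 240, for Nqo1. The libraries carry numbers in their names, and LPS and vehicle libraries of the same genotype with consecutive numbers form 9 pairs, 5 of APP and 4 of WT, with WT LPS replicate 1 left over. The labels do not say what a number stands for. The 12 macrophage markers summed to between 4845 and 9176 CPM in the 15 libraries numbered below 57. They summed to 1329 CPM in APP LPS replicate 5, 2066 CPM in APP vehicle replicate 5, 2204 CPM in WT LPS replicate 5 and 2985 CPM in WT vehicle replicate 4, which are the libraries numbered 57 to 60, and none of the 12 was at 0 in any library. A list of 12 markers of pericytes, smooth muscle and fibroblasts summed to 1270 to 5630 CPM in APP LPS, 1266 to 4826 CPM in APP vehicle, 1783 to 3434 CPM in WT LPS and 1720 to 3108 CPM in WT vehicle libraries. Of these 12, Myl9 and Lum were at 0 in 2 libraries each, and 6 of 8 endothelial and 4 of 7 astrocyte markers were at 0 in at least 1 library. Fewer cells of a type and less RNA per cell cannot be told apart in such bulk libraries.

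With LPS, Sod2 had the highest mean change of the members, 1.16 ± 0.24 (SE) on the log2 scale over both genotypes, and Slc7a11, Gsr and Txn1 followed with 0.70 to 0.48. The genes for glutathione synthesis, Gclc and Gclm, and the quinone reductase Nqo1 had values of -0.14, -0.029 and -0.0058. No member passed an adjusted p of 0.05 (edgeR's quasi-likelihood test on 19 libraries, Benjamini-Hochberg over all genes) in WT, in APP or over both genotypes. Of all genes tested, 0% were called in WT, 0% in APP and 0.0213% over both genotypes, which is 3 genes. At an unadjusted p under 0.05, 1 member was higher with LPS in WT, 3 in APP and 3 over both genotypes, beside 2.48%, 1.74% and 3.12% of all genes tested. DESeq2 called Sod2 in WT, no member in APP, and Sod2 and Txn1 over both genotypes, beside 0.631%, 0.539% and 1.26% of all genes tested. The median log2 change over both genotypes was 0.20 for the members and -0.020 for all genes tested. When all 9 pairs, of both genotypes, entered an edgeR fit as a block, Sod2 and Txn1 were called higher in APP, beside 0.298% of all genes tested called higher. Other fits that used the same APP pairs called 0 members in APP: the block on the APP libraries alone, beside 0.106% of all genes tested in either direction, the block by title number, which pairs the WT libraries otherwise, beside 0.0142%, and voom with a random pair effect, beside 0.0638%.

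**Figure D1:**
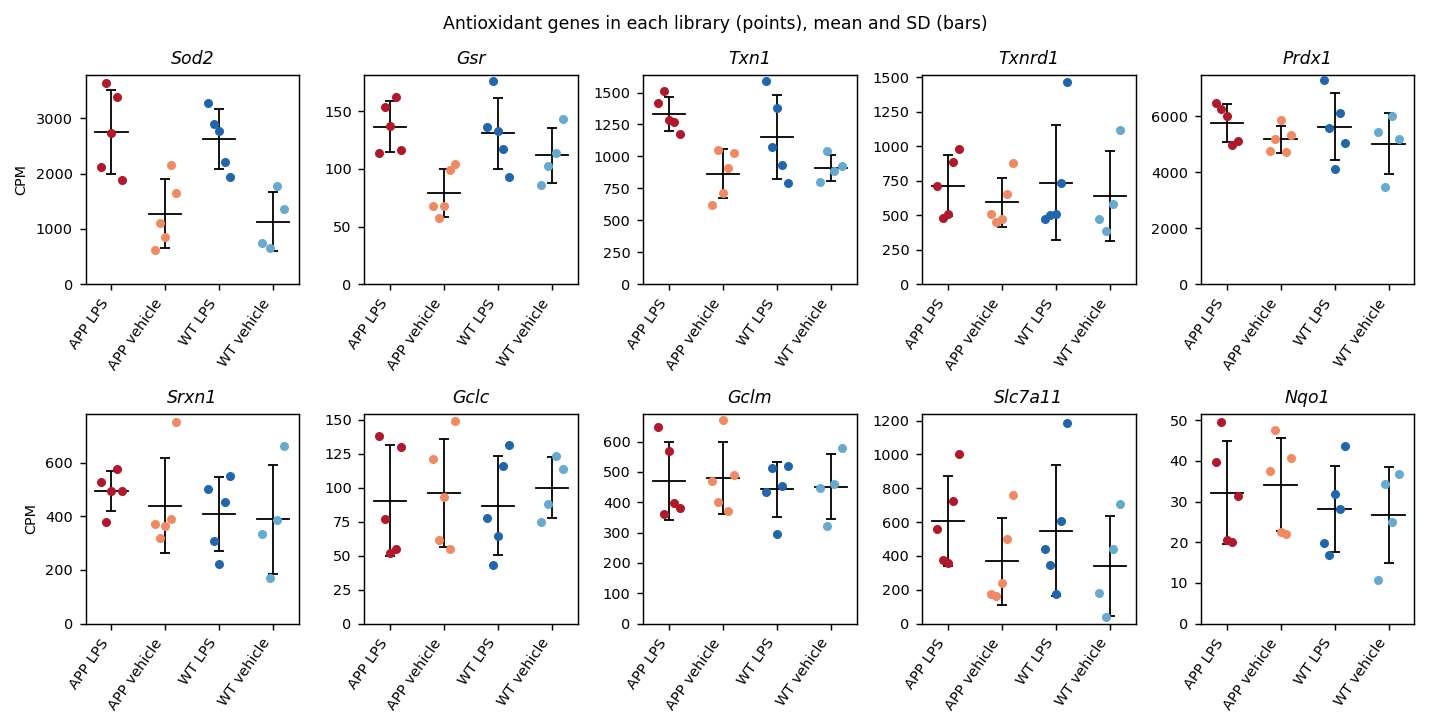
CPM of each of the 10 genes in every library (vertical axis, one panel per gene) by group (horizontal axis), with points for libraries, long lines for group means and error bars for the SD. Sod2 lies at 1884 to 3636 CPM in the LPS libraries and at 625 to 2149 CPM in the vehicle libraries, whereas Gclm and Nqo1 cover much the same range in all 4 groups.

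Sod2 encodes the manganese superoxide dismutase of mitochondria, which turns superoxide into hydrogen peroxide. It had 2113, 3636, 2731, 3388 and 1884 CPM in APP LPS replicates 1 to 5, against 625, 1106, 863, 2149 and 1645 CPM in APP vehicle replicates 1 to 5. In WT it had 3282, 2903, 2770, 2205 and 1931 CPM in LPS replicates 1 to 5, against 737, 659, 1779 and 1358 CPM in vehicle replicates 1 to 4. Every WT LPS library was above every WT vehicle library, which held for no other member and for 0.723% of all genes tested; in APP the groups overlapped, because vehicle replicate 4 exceeded LPS replicates 1 and 5. The mean log2 change was 1.11 ± 0.32 (SE) in APP (adjusted p = 0.956) and 1.21 ± 0.35 in WT (adjusted p = 1.00, edgeR quasi-likelihood test), and over both genotypes the adjusted p was 0.106. Leaving out APP vehicle replicate 4 alone brought the adjusted p over both genotypes to 0.0387.

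With all 9 pairs as a block, Sod2 rose in APP by 1.20 ± 0.25 on the log2 scale (adjusted p = 0.0331, edgeR quasi-likelihood test). This call was lost without the pair of libraries 3 and 4, 7 and 8, 11 and 12, or 51 and 52, with adjusted p-values of 0.134, 0.272, 0.199 and 0.0539, and its adjusted p was 0.0946 with the APP libraries alone, 0.252 with the block by title number and 0.0866 by voom. Sod2 was higher with LPS in all 9 pairs, by 0.20 to 2.07 on the log2 scale.

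Gsr and Txn1 supply reducing power: Gsr encodes glutathione reductase, which returns oxidised glutathione to its reduced form with NADPH, and Txn1 encodes the thioredoxin of cytosol and nucleus. Gsr had 114, 153, 137, 163 and 117 CPM in APP LPS replicates 1 to 5, against 67.9, 57.3, 67.8, 98.8 and 104 CPM in APP vehicle replicates 1 to 5. Txn1 had 1418, 1515, 1285, 1270 and 1173 CPM in APP LPS replicates 1 to 5, against 620, 1052, 712, 907 and 1029 CPM in APP vehicle replicates 1 to 5. In APP these were the only 2 members whose LPS libraries all lay above all vehicle libraries, beside 0.255% of all genes tested. No member lay all lower with LPS in either genotype, where 0.333% of all genes did in APP and 0.581% in WT. In WT, Gsr had 136, 176, 133, 117 and 92.6 CPM in LPS replicates 1 to 5, against 86.4, 103, 114 and 144 CPM in vehicle replicates 1 to 4. Txn1 had 1592, 1074, 1378, 936 and 791 CPM in WT LPS replicates 1 to 5, against 796, 1043, 884 and 924 CPM in WT vehicle replicates 1 to 4. The WT groups overlapped for both genes, and in both WT LPS replicate 5 was the lowest of its group.

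The mean log2 change of Gsr with LPS was 0.79 ± 0.22 (SE) in APP (adjusted p = 0.956) and 0.23 ± 0.23 in WT (adjusted p = 1.00, edgeR quasi-likelihood test). That of Txn1 was 0.62 ± 0.20 in APP (adjusted p = 0.956) and 0.34 ± 0.22 in WT (adjusted p = 1.00, edgeR quasi-likelihood test). With all 9 pairs as a block, Txn1 rose in APP by 0.65 ± 0.14 (adjusted p = 0.0331, edgeR quasi-likelihood test), and Gsr had 0.81 ± 0.21 and an adjusted p of 0.0960. The call of Txn1 was lost without the pair of libraries 3 and 4, 7 and 8, 11 and 12, or 51 and 52, with adjusted p-values of 0.155, 0.146, 0.181 and 0.0770, and its adjusted p was 0.130 with the APP libraries alone, 0.405 with the block by title number and 0.121 by voom. In those 3 fits Gsr had adjusted p-values of 0.177, 0.320 and 0.138. Without the pair 9 and 10, 57 and 58, or 59 and 60, Gsr and Slc7a11 passed in the block of all pairs as well. A processed pseudogene of Txn1 is annotated in the mouse genome, and reads it shares with Txn1 could have been assigned to either.

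**Figure D2:**
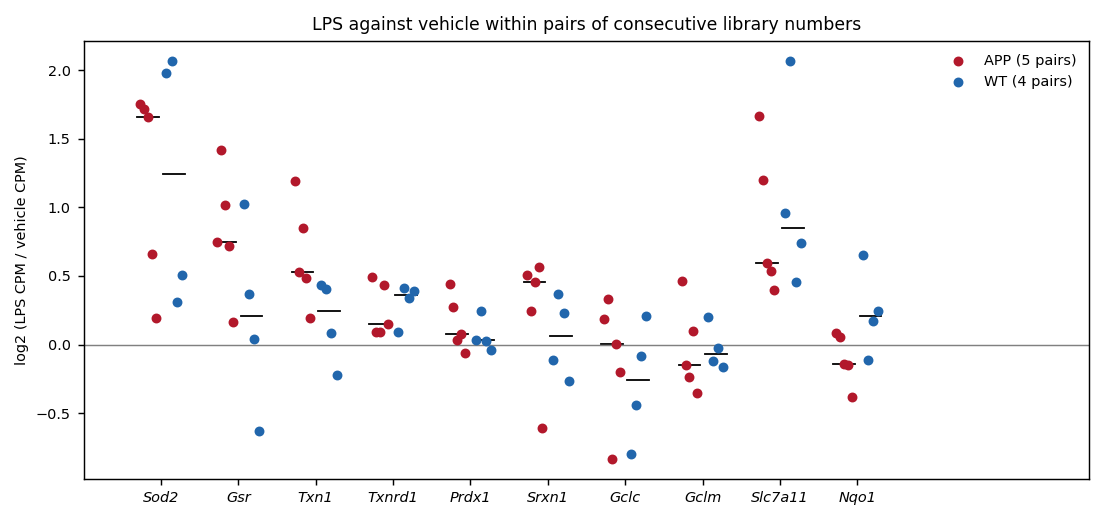
Log2 ratio of LPS CPM to vehicle CPM (vertical axis) of each gene within the 5 APP and 4 WT pairs of consecutive library numbers; points are pairs and black lines are medians. All 9 points of Sod2, Txnrd1 and Slc7a11 lie above 0, whereas those of Gclm, Gclc and Nqo1 lie on both sides of it.

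Txnrd1, Prdx1 and Srxn1 complete the thioredoxin system. Txnrd1 encodes the cytosolic thioredoxin reductase, a selenoprotein that reduces thioredoxin with NADPH. It had 715, 481, 507, 885 and 978 CPM in APP LPS replicates 1 to 5, against 507, 451, 475, 656 and 881 CPM in APP vehicle replicates 1 to 5. In WT it had 472, 503, 509, 736 and 1461 CPM in LPS replicates 1 to 5, against 473, 382, 582 and 1114 CPM in vehicle replicates 1 to 4. Within a group the libraries spread widely, and WT LPS replicate 5 stood far above the other 4 of its group. The mean log2 change was 0.26 ± 0.33 (SE) in APP and 0.21 ± 0.35 in WT, smaller than its error in both, and without WT LPS replicate 5 the WT value was -0.20. Within pairs Txnrd1 was higher with LPS in 9 of 9, by 0.090 to 0.50 on the log2 scale. The gene overlaps Eid3 on the same strand, so reads in the shared stretch could have been assigned to either.

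Prdx1, a peroxiredoxin that reduces hydrogen peroxide with electrons from thioredoxin, was higher with LPS in 7 of 9 pairs, by -0.063 to 0.44 on the log2 scale. Its means were 5766 ± 682 CPM in APP LPS and 5179 ± 468 CPM in APP vehicle (SD, n = 5 each). In WT they were 5636 ± 1193 CPM with LPS (SD, n = 5) and 5033 ± 1098 CPM with vehicle (SD, n = 4). In WT the means differed by less than either SD, and in APP by less than the SD with LPS but more than that with vehicle. The change over both genotypes was 0.16 ± 0.14 (SE) on the log2 scale. Srxn1, sulfiredoxin, which repairs peroxiredoxins that hydrogen peroxide has overoxidised, had 528, 378, 495, 577 and 494 CPM in APP LPS replicates 1 to 5, against 372, 318, 362, 390 and 752 CPM in APP vehicle replicates 1 to 5. APP vehicle replicate 5 was the highest of all 19 libraries, and the other 4 APP vehicle libraries lay below every APP LPS library except replicate 2. In WT, Srxn1 ranged from 221 to 551 CPM with LPS and from 171 to 661 CPM with vehicle, the change over both genotypes was 0.12 ± 0.22 (SE) on the log2 scale, and 6 of 9 pairs were higher with LPS.

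Slc7a11, Gclc and Gclm lead into glutathione. Slc7a11 encodes the light chain of the cystine and glutamate exchanger, which brings in the cystine from which the cysteine of glutathione is made. It had 562, 379, 361, 723 and 1001 CPM in APP LPS replicates 1 to 5, against 177, 165, 239, 500 and 761 CPM in APP vehicle replicates 1 to 5. In WT it had 440, 346, 172, 606 and 1182 CPM in LPS replicates 1 to 5, against 178, 41.2, 442 and 706 CPM in vehicle replicates 1 to 4. The highest and the lowest of the 19 libraries differed 28.7-fold, the most of any member, and the LPS and vehicle groups overlapped in both genotypes. The log2 change was 0.72 ± 0.57 (SE) in APP, 0.68 ± 0.61 in WT and 0.70 ± 0.42 over both (adjusted p = 1.00, 1.00 and 0.931, edgeR quasi-likelihood test), and without WT LPS replicate 5 the WT value was 0.19. Set against its own pair, each LPS library was higher, by 1.32-fold to 4.18-fold over the 9 pairs. With all 9 pairs as a block the APP change was 0.88 ± 0.20, with an adjusted p of 0.0510 in edgeR's quasi-likelihood test. With the block by title number its SE was 0.40 and its adjusted p 1.00, with the APP libraries alone the adjusted p was 0.121, and by voom it was 0.476.

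Gclc and Gclm encode the catalytic and the modifier subunit of glutamate-cysteine ligase, the rate-limiting enzyme of glutathione synthesis. Gclm averaged 472 ± 129 CPM in APP LPS and 481 ± 118 CPM in APP vehicle libraries (SD, n = 5 each), and its WT means were 443 ± 89.8 CPM with LPS (SD, n = 5) and 452 ± 106 CPM with vehicle (SD, n = 4). Gclc averaged 90.5 ± 41.0 CPM in APP LPS and 96.0 ± 39.9 CPM in APP vehicle libraries (SD, n = 5 each), and its WT means were 86.7 ± 36.5 CPM with LPS (SD, n = 5) and 99.9 ± 22.4 CPM with vehicle (SD, n = 4). Neither subunit separated the treatments: the log2 change over both genotypes was -0.029 ± 0.16 (SE) for Gclm and -0.14 ± 0.25 for Gclc. Gclm was higher with LPS in 3 of 9 pairs and Gclc in 4 of 9. Nqo1, a quinone reductase often read as a marker of Nrf2 activity, averaged 32.2 ± 12.7 CPM in APP LPS and 34.1 ± 11.4 CPM in APP vehicle libraries (SD, n = 5 each). Its WT means were 28.1 ± 10.6 CPM with LPS (SD, n = 5) and 26.7 ± 11.8 CPM with vehicle (SD, n = 4). The change over both genotypes was -0.0058 ± 0.27 (SE) on the log2 scale, and 5 of 9 pairs were higher with LPS.

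Counted over pairs, Sod2, Txnrd1 and Slc7a11 were higher with LPS in all 9, beside 0.935% of all genes tested. In the 5 APP pairs Gsr and Txn1 joined them, beside 3.46% of all genes, and in the 4 WT pairs the same 3 members as over all 9 were higher throughout, beside 7.43%. Gsr and Txn1 were each higher in 8 of 9 pairs, and the exception was the WT pair 57 and 58, with log2 ratios of -0.63 for Gsr and -0.22 for Txn1. The summed macrophage markers moved with treatment too: they were lower with LPS in all 9 pairs, at 0.643-fold to 0.951-fold of the vehicle library, and their part in the members' ratios was not tested. In APP, with all 9 pairs as a block, 2 of the 12 markers fell, beside 0.291% of all genes tested called lower. They were C1qc, which fell by 0.66 on the log2 scale, and Trem2, which fell by 1.47, and among the markers of pericytes, smooth muscle and fibroblasts Tagln fell by 0.56 (adjusted p = 0.0110, 0.00382 and 0.0334, edgeR quasi-likelihood test). With the APP libraries alone the adjusted p-values were 0.0747, 0.05001 and 0.118, none under 0.05, and with the block by title number 0.736, 0.148 and 0.983. The summed list that holds Tagln did not fall throughout: it was higher with LPS in 6 of 9 pairs, 3 of 5 in APP. Over the 9 pairs this sum was at 0.850-fold to 1.17-fold of the vehicle library.

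The ratios of some members were larger in the 5 pairs numbered 3 to 22 than in the 4 numbered 41 to 60, a split made with these values known and therefore given with no test. Sod2 was higher with LPS by 1.66 to 2.07 on the log2 scale in the lower-numbered pairs and by 0.20 to 0.66 in the higher-numbered ones. For Slc7a11 the ratios were 0.59 to 2.06 in pairs 3 to 22 and 0.40 to 0.74 in pairs 41 to 60. Both sets of pairs hold APP and WT libraries, and the ranges of Sod2 did not overlap. Il1b, the cytokine used here as a measure of the LPS response, showed the same split, with 4.11 to 5.20 in pairs 3 to 22 and 1.73 to 2.65 in pairs 41 to 60. Its level was 52.1 to 131 CPM in vehicle libraries 41 to 59 and 6.36 to 26.1 CPM in vehicle libraries 3 to 21. In LPS libraries it was 265 to 437 CPM in 42 to 60 and 197 to 729 CPM in 4 to 22, so these overlapped. Gsr had 0.37 to 1.42 in pairs 3 to 22 and -0.63 to 0.72 in pairs 41 to 60, and Txn1 had 0.40 to 1.19 and -0.22 to 0.49. For Sod2 the vehicle libraries differed: its level was 1358 to 2149 CPM in vehicle libraries 41 to 59 and 625 to 1106 CPM in vehicle libraries 3 to 21. LPS libraries 42 to 60 had 1884 to 3388 CPM and LPS libraries 4 to 22 had 2113 to 3636 CPM, so these overlapped. Among vehicle libraries, Sod2, Txnrd1, Srxn1 and Slc7a11 were higher in all 4 of the later numbers than in all 5 of the earlier, beside 3.12% of all genes tested, and among LPS libraries this held for Txnrd1 and Slc7a11, beside 1.5%. What the numbers record is not given, so no cause of the split was tested.

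**Figure D3:**
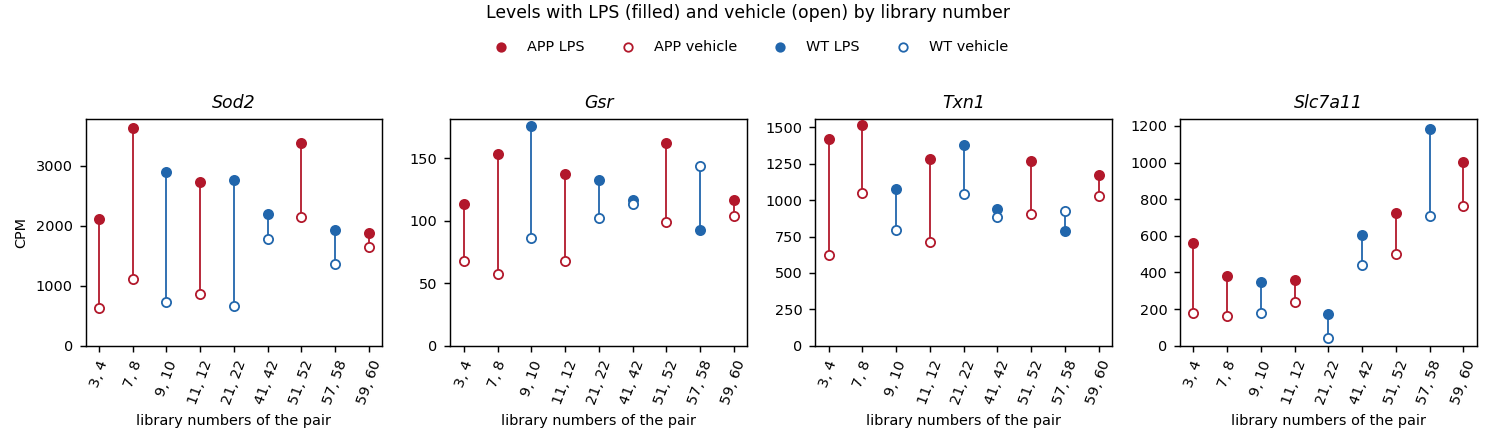
CPM of Sod2, Gsr, Txn1 and Slc7a11 (vertical axis, from 0) in the 9 pairs of consecutive library numbers (horizontal axis, by number), with filled points for LPS, open points for vehicle, red for APP and blue for WT, and a line joining each pair. Open points of Sod2 lie at 1358 to 2149 CPM in vehicle libraries 41 to 59 and at 625 to 1106 CPM in vehicle libraries 3 to 21, and in the pair 57 and 58 the filled points of Gsr and Txn1 lie below the open ones.

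Between genotypes no member was called: 0 of 10 in APP against WT with vehicle, after LPS or over both treatments, where 0% of all genes tested were called in each. DESeq2 called 0 members in these comparisons as well, beside 0.453%, 0.489% and 0.758% of all genes tested. At an unadjusted p under 0.05 there was 1 member with vehicle, 0 after LPS and 0 over both treatments, beside 2.85%, 3.42% and 3.44% of all genes tested. That member was Gsr, at 79.2 ± 20.9 CPM in APP vehicle (SD, n = 5) and 112 ± 24.1 CPM in WT vehicle libraries (SD, n = 4), and at 137 ± 21.7 CPM in APP LPS and 131 ± 30.5 CPM in WT LPS libraries (SD, n = 5 each). No member's APP libraries lay all above or all below the WT libraries of the same treatment; of all genes tested, 0.475% lay above and 0.368% below with vehicle, and 0.163% above and 0.333% below after LPS. Over both treatments the log2 difference of APP from WT was -0.22 ± 0.16 (SE) for Gsr, 0.28 ± 0.27 for Nqo1 and 0.23 ± 0.22 for Srxn1 (adjusted p = 1.00 each, edgeR quasi-likelihood test).

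Whether LPS changed a member more in APP than in WT was tested as an interaction, and 0 of 10 members and 0% of all genes tested were called. The interaction of Gsr was 0.56 ± 0.32 (SE) on the log2 scale, with an unadjusted p of 0.0914 and an adjusted p of 1.00 in edgeR's quasi-likelihood test. That of Txn1 was 0.28 ± 0.29. At an unadjusted p under 0.05 there were 0 members, beside 2.73% of all genes tested, and DESeq2 called 0, beside 0.701%. With all 9 pairs as a block the interaction of Txn1 was 0.48 ± 0.20, with an unadjusted p of 0.0299 and an adjusted p of 1.00, the only member under 0.05 unadjusted, beside 1.96% of all genes tested. For Gsr and Txn1, whose LPS and vehicle libraries were apart in APP and overlapped in WT, no difference between the genotypes passed the adjusted threshold.

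Across libraries 6 of the members fell into 2 patterns, given here as a description. Sod2, Gsr and Txn1 ran together: Spearman correlations of CPM over 19 libraries, which share their treatments and pairs, were 0.78 for Sod2 with Gsr, 0.72 for Sod2 with Txn1 and 0.64 for Gsr with Txn1. Without libraries 57 to 60 these were 0.86, 0.77 and 0.66, and for deviations from the group means over 19 libraries 0.75, 0.50 and 0.36. Slc7a11, Srxn1 and Txnrd1 made up the other: 0.87 for Slc7a11 with Srxn1, 0.87 for Slc7a11 with Txnrd1 and 0.73 for Srxn1 with Txnrd1. Without libraries 57 to 60 these were 0.87, 0.76 and 0.59, and for deviations from the group means 0.85, 0.84 and 0.69. Gclm and Prdx1, whose promoter windows also held the core of the antioxidant response element, had 0.26 and 0.17 with Slc7a11. For deviations from the group means these were 0.41 and 0.23, and any part of the core in the patterns was not tested. Over the 8238 genes with a mean of at least 10 CPM, the nearest in pattern to Sod2 were Irak3 (0.94), Socs3 (0.92) and Slfn2 (0.90). Nearest to Slc7a11 were Anp32b (0.90), Nfe2l1 (0.90) and Ppid (0.89), and nearest to Srxn1 was Slc7a11 itself. Gsr had Socs3 (0.80), Txn1 had Psmd10 (0.83) and Txnrd1 had Kif2a (0.93) as the first in rank.

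Over all 19 libraries the second pattern ran opposite to the macrophage marker level, and these correlations were not computed without libraries 57 to 60. Txnrd1 had 978, 881, 1461 and 1114 CPM in the libraries with the lowest marker sums, APP LPS replicate 5, APP vehicle replicate 5, WT LPS replicate 5 and WT vehicle replicate 4. In the other 15 libraries it had 382 to 885 CPM, so APP vehicle replicate 5 alone fell inside their range. Its Spearman correlation with the summed markers over 19 libraries was -0.75, and those of Gclc, Nqo1, Slc7a11 and Srxn1 were -0.64, -0.59, -0.59 and -0.52. For Sod2, Gsr and Txn1 it was 0.063, -0.070 and -0.030. The 4 libraries with the lowest marker sums also carry the highest numbers, so marker level and number cannot be told apart there. Vehicle libraries 41 and 51 had marker sums of 7962 and 7527 CPM, and 582 and 656 CPM of Txnrd1. Vehicle libraries 3 to 21 had 382 to 507 CPM of Txnrd1. Whether cell makeup had a part in these levels was not tested. Without libraries 57 to 60, the log2 change with LPS over both genotypes was 1.36 for Sod2 (adjusted p = 0.0354, called, edgeR quasi-likelihood test), 0.86 for Slc7a11, 0.71 for Gsr and 0.59 for Txn1, each larger than with them.

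**Figure D4:**
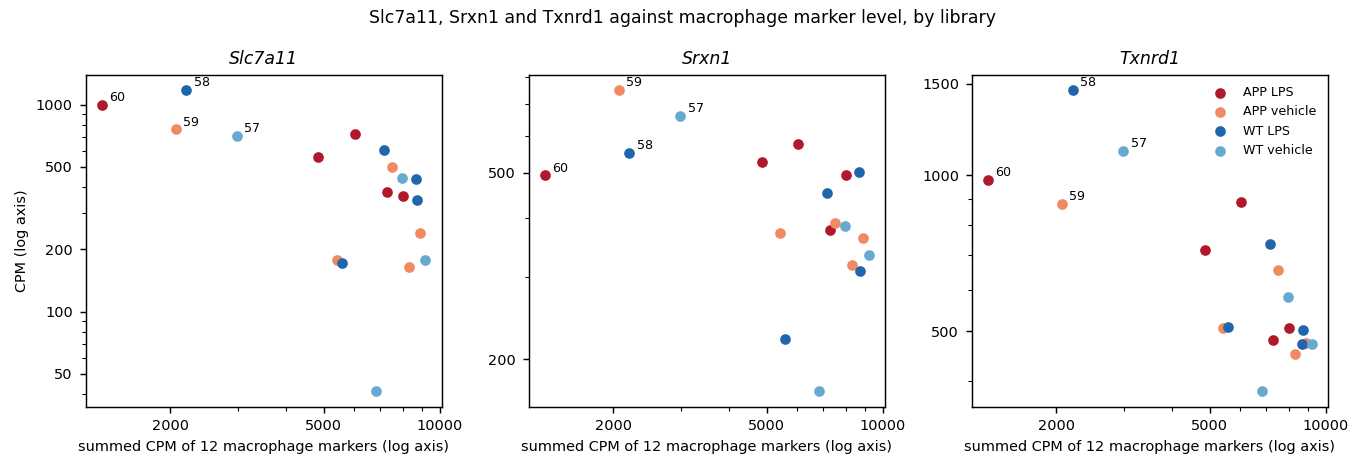
CPM of Slc7a11, Srxn1 and Txnrd1 (vertical log axes) against the summed CPM of 12 macrophage markers (horizontal log axes) in the 19 libraries, with libraries 57 to 60 numbered. Those 4 have marker sums of 1329 to 2985 CPM against 4845 to 9176 CPM in the other 15. On the vertical axes they lie at 706 to 1182 CPM for Slc7a11, 494 to 752 CPM for Srxn1 and 881 to 1461 CPM for Txnrd1. The other 15 lie at 41.2 to 723, 171 to 577 and 382 to 885 CPM, so the ranges overlap for each gene.

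The other genes of these pathways gave few calls. The lists, without the members, held 16 thioredoxin and peroxiredoxin genes, 28 glutathione genes, 3 genes for removal of superoxide and hydrogen peroxide, 23 further Nrf2 targets, 9 regulators of Nrf2 and 6 subunits of the phagocyte NADPH oxidase. With LPS over both genotypes, none of them was called in either direction in the fit without pairs. Their medians in that fit on the log2 scale were 0.052, -0.18, -0.10, 0.082, 0.037 and 0.39, beside -0.020 for all genes. At an unadjusted p under 0.05 in the same fit, Prdx5, Abcc1 and Cybb alone of the listed genes were higher with LPS. Their share of the listed genes was near the 3.12% of all genes tested, so it is no result about the lists. Idh1 alone was lower, and the share of all genes that were lower is not given here. Prdx5, a peroxiredoxin of mitochondria and peroxisomes, had 0.74 ± 0.21 (SE) on the log2 scale and was higher in 9 of 9 pairs. Its means were 1012 ± 409 CPM in APP LPS and 627 ± 185 CPM in APP vehicle (SD, n = 5 each), and 1039 ± 346 CPM in WT LPS (SD, n = 5) and 603 ± 107 CPM in WT vehicle libraries (SD, n = 4). Abcc1, an exporter of glutathione conjugates, had 0.64 ± 0.24 and was higher in 8 of 9 pairs, and Idh1, a cytosolic source of NADPH, had -0.70 ± 0.21 and was lower in 8 of 9. None of these 3 passed the adjusted threshold in the fit without pairs. With all 9 pairs as a block, all 3 were called over both genotypes. Their adjusted p-values were 0.00439 for Prdx5, 0.0173 for Idh1 and 0.0196 for Abcc1 (edgeR quasi-likelihood test). In that fit 211 of the 14113 genes tested were called, and it rests on WT pairs that title numbers do not mark. In APP the same test gave adjusted p-values of 0.0524 for Prdx5 and 0.238 for Idh1. Abcc1 rose there by 0.84 ± 0.18 (adjusted p = 0.0399, edgeR quasi-likelihood test). Its adjusted p was 0.111 with the APP libraries alone, 0.285 with the block by title number and 0.272 by voom.

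Among the 6 oxidase subunits, the highest log2 change over both genotypes without a block was that of Cybb, the catalytic subunit that passes electrons to oxygen. It averaged 1276 ± 466 CPM in APP LPS and 791 ± 303 CPM in APP vehicle (SD, n = 5 each), and 1461 ± 315 CPM in WT LPS (SD, n = 5) and 933 ± 331 CPM in WT vehicle libraries (SD, n = 4). Cybb was higher with LPS in 9 of 9 pairs, and its change over both genotypes was 0.67 ± 0.22 on the log2 scale. With all 9 pairs as a block it rose by 0.66 ± 0.11 over both genotypes (adjusted p = 0.00257, edgeR quasi-likelihood test). In APP with this block it rose by 0.69 ± 0.15 (adjusted p = 0.0387, edgeR quasi-likelihood test). Its adjusted p was 0.171 with the APP libraries alone, 0.802 with the block by title number and 0.297 by voom. Rac2 and Ncf4, which help to assemble the oxidase, had 0.51 ± 0.38 and 0.46 ± 0.35. Ncf4 was lower with LPS in 6 of 9 pairs, and its value in APP was -0.070 without a block and -0.33 with all 9 pairs as a block. Cyba, the membrane partner of Cybb, had 0.033 ± 0.25 over both genotypes and -0.069 with all 9 pairs as a block. The heavy chain partner of Slc7a11, Slc3a2, had 0.32 ± 0.15 and was higher in 9 of 9 pairs. Hmox1, heme oxygenase, had 0.36 ± 0.22 and was higher in 8 of 9, and Glrx, a glutaredoxin, had 0.69 ± 0.34. The values of Mgst3, Sesn1 and Sesn3 were -0.93 ± 0.50, -0.80 ± 0.52 and -0.56 ± 0.38, and those of Cat, Sod1 and Sod3 were -0.30 ± 0.23, -0.10 ± 0.15 and -0.066 ± 0.66. None of these passed the test.

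The regulators themselves differed little between treatments. Nfe2l2, which encodes Nrf2, averaged 353 ± 130 CPM in APP LPS and 389 ± 76.1 CPM in APP vehicle (SD, n = 5 each), and 393 ± 92.8 CPM in WT LPS (SD, n = 5) and 398 ± 71.3 CPM in WT vehicle libraries (SD, n = 4). Its change over both genotypes was -0.080 ± 0.16 (SE) on the log2 scale. Keap1 had -0.16 ± 0.24, and Bach1, a repressor that competes with Nrf2 at antioxidant response elements, had 0.077 ± 0.23. Nfe2l1, a relative of Nrf2 that drives proteasome genes, had 0.32 ± 0.17 and was higher in 9 of 9 pairs without passing the test. As a check on the treatment, Il1b rose by 3.05 ± 0.48 and Tnf by 1.56 ± 0.24 over both genotypes (adjusted p = 0.0148 each, edgeR quasi-likelihood test). Il1b averaged 399 ± 200 CPM in APP LPS and 46.2 ± 50.7 CPM in APP vehicle (SD, n = 5 each), and 312 ± 96.6 CPM in WT LPS (SD, n = 5) and 39.3 ± 31.4 CPM in WT vehicle libraries (SD, n = 4).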

How the data were processed

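RNA of cultured microglia was sequenced in 19 libraries as 3′ tags (QuantSeq 3′ FWD, with molecular identifiers and ERCC spike-ins, RNA integrity above 8.5), per the labels' protocols. The authors deposited estimated counts per gene, as whole numbers, and the submitters' processing notes name FastQC, Trimmomatic, kallisto and DESeq2. For the genome build, the annotation and any collapse of reads by identifier, the sources used here give nothing. The tables held no row for a spike-in, and no gene summed to fewer than 10 counts over the libraries.

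The deposited estimated counts were fitted with edgeR 4.0.16 in R 4.3.3 (group means over all 19 libraries, TMM factors, filterByExpr, quasi-likelihood F test, Benjamini-Hochberg adjustment over 14113 genes, called at an adjusted p under 0.05). Alternatives were DESeq2 1.42.0, limma 3.58.1 voom, other scaling factors, no filter, blocks by library pair or title number, each library left out, and the libraries numbered 57 to 60 left out. The SE is the log2 change divided by the square root of F. The script was tested on simulated data with no pair effect and a smaller spread between libraries than was estimated here. That test does not show how the fits perform at the spread of these data.

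Libraries of a genotype with consecutive numbers were checked as pairs by the correlation of their deviations from the group means over genes. In APP, where title replicate numbers mark the same pairs, all 5 correlations were over 0.1 (0.130 to 0.352), so blocked APP values stand beside the others. The highest was that of libraries 59 and 60, which had low macrophage marker sums. APP libraries of different pairs were not compared, so the check cannot tell pairing from another feature that 2 libraries share. The blocked APP values come from 1 fit with all 9 pairs, the WT pairs included, unless the APP libraries alone are named. By a chi-square comparison of counts, each of 36 pairings of libraries within a group differed by more than sampling noise. Per member, the 3 genes most alike were ranked by Spearman correlation. Of other lists, the text names Nfe2l2, Keap1, Bach1, Il1b and Tnf. It also names genes called without pairs or with the library pair block, and up to 3 per list with the smallest p. Cyba is named outside this rule, as the partner of Cybb. Members and lists were chosen with earlier results of these data known.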

Additional observations from a re-analysis of the deposited data

Results flagged for a closer look

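In 2 of 40 sets of a member and a group, a single library stood apart from the rest of its group by Dixon's criterion, which chance alone meets in about 1 set in 20. Txnrd1 had 1461 CPM in WT LPS replicate 5 (library 58), and the other 4 WT LPS libraries had 472 to 736 CPM. Srxn1 had 752 CPM in APP vehicle replicate 5 (library 59), and the other 4 APP vehicle libraries had 318 to 390 CPM. Both libraries are among the 4 with the lowest macrophage marker sums, 2204 CPM in library 58 and 2066 CPM in library 59, and the part of cell makeup in these values was not tested.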

How the results depend on the processing

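No member was called in APP against WT or in the interaction under any alternative tried. For LPS, the members called numbered 0 in every fit without a block other than DESeq2 and, over both genotypes, those without libraries 57 to 60 or without APP vehicle replicate 4. DESeq2 called 1 member in WT and 2 over both genotypes, voom with a random pair effect called 1 over both genotypes, a block by title number 1, and the fit without libraries 57 to 60 1. The WT pairs do not all meet the criterion for pairing (correlations of 0.120, 0.151, 0.0959 and 0.292), and they entered the same fit as the APP pairs: with all library pairs as a replicate block, 0 members were called in WT, 2 in APP, and 3 over both genotypes (Sod2, Slc7a11 and Txn1, adjusted p = 0.00142, 0.00138 and 0.0476, edgeR quasi-likelihood test). The block also moved all calls over both genotypes to 211, beside 3 without it, 178 by DESeq2, 68 by voom, 39 by title number and 31 without libraries 57 to 60. In WT and APP there were 0 calls without a block, 21 and 83 with it, and 89 and 76 by DESeq2. In the genotype comparisons DESeq2 called 64 genes with vehicle, 69 after LPS, 107 over both and 99 for the interaction, where edgeR called 0. The block without libraries 57 to 60 (chosen after seeing the data) called 1 member in WT, 4 in APP and 4 over both, of 32, 173 and 282 genes called. The block on the APP libraries alone (also chosen after seeing the data) and that by title number called 0 members in APP, of 13 and 2 genes. Leaving out each pair from the block gave 0 to 2 members in WT, 0 to 4 in APP and 2 to 4 over both, of 3 to 36, 9 to 142 and 116 to 282 genes called, and leaving out each library without a block gave 0 to 1 over both genotypes.

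Directions turned for small changes. Txnrd1 in WT was -0.100 with a block by title number, and -0.20 to 0.62 with each library or pair left out. Nqo1 over both genotypes was 0.11 by voom, 0.066 with the pair block, 0.096 with the block and 0.021 without a block when libraries 57 to 60 were left out, and -0.14 to 0.12 with each library or pair left out. Gclm over both genotypes was 0.027 with the block and 0.043 without it when libraries 57 to 60 were left out, and -0.10 to 0.047 with each library or pair left out. Srxn1 over both genotypes was -0.010 to 0.31 and Gsr in WT -0.073 to 0.49 with each library or pair left out. The cause was not tested. For the other reported changes of members the direction held under the alternatives run. Genes of the other lists were not followed through all of these alternatives, and Cyba changed sign over both genotypes with the pair block. The lowest count of a member in a library was 240.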
